A study of Mus musculus with 27 samples.

Results

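The xenobiotic-metabolizing enzymes of the Cyp1 to Cyp4, Ugt, Sult, Gst and Fmo families were followed in mouse colon with and without the transcription factors Foxa1 and Foxa2. Members were taken by symbol (Cyp1 to Cyp4 with a letter, Ugt1 or Ugt2, Sult with a digit, cytosolic and kappa-class Gst, Fmo1 to Fmo5, no pseudogenes). A member also had to be in the authors' deposited gene matrices or reach a mean of 0.5 CPM (counts scaled to the library total) in at least 1 of the 4 groups. The rule gave 82 genes of the 35975 with summed counts, namely 39 Cyp, 21 Gst, 10 Ugt, 8 Sult and 4 Fmo genes. A further 66 genes of these families stayed below that level. The rule used levels but not the difference between groups. A gene in neither matrix could still enter through its highest group alone. Cyp2c67 entered in this way through distal controls, at 0.72 CPM, so its differences from that group are not independent of the rule. Cyp2c23, also in neither matrix, was highest in distal controls, at 1.12 CPM, and the same limit applies to it.

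Poly(A) RNA of whole colon pieces was sequenced in 27 libraries from 14 mice of mixed background, with 7 control and 7 deficient mice in proximal colon and 6 and 7 in distal colon. All mice carried floxed Foxa1 and Foxa2 alleles. Deficient mice carried Villin1-Cre, a recombinase driven in the gut epithelium, with both copies of Foxa1lox and of Foxa2lox, and were 9 to 13 months old, 5 labelled male and 2 labelled female. Controls were labelled male and were 9 to 18 months old. Of the controls, 5 had both floxed genes and no Cre. Control replicate 1 had Cre with 1 floxed copy of each gene, and control replicate 6 had Cre with both Foxa1 copies and 1 Foxa2 copy floxed. Muscle, stromal and immune cells were in every sample, so fewer cells of a type cannot be told apart from less RNA per cell.

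Cytochrome P450 enzymes (Cyp) and flavin monooxygenases (Fmo) add or expose a polar group on fatty acids, steroids, drugs and dietary compounds. UDP-glucuronosyltransferases (Ugt), sulfotransferases (Sult) and glutathione S-transferases (Gst) then attach glucuronic acid, sulfate or glutathione, which makes the product easier to export. In the gut these enzymes sit mostly in the absorptive epithelium, where they meet compounds from food and from bacteria. Many of the genes lie in tandem clusters of close copies.

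Foxa1 lay between 50.9 and 69.4 CPM in 6 of 7 proximal controls and between 10.1 and 14.5 CPM in the deficient libraries, while proximal control replicate 6 had 13.9 CPM. The same control mouse had 7.60 CPM of Foxa1 in distal colon, against 42.4 to 80.8 CPM in the other controls and 7.21 to 10.5 CPM in deficient mice. Its Foxa2 was 15.7 CPM in proximal colon, above the 6.05 to 10.4 CPM of the other controls, and 23.8 CPM in distal colon, within their range. Deficient replicate 3, labelled male, had 2.98 and 3.59 CPM summed over 4 Y-linked genes, where the other libraries of mice labelled male had at least 140.7 CPM. Total estimated counts ran from 18472867 to 56744113 per library. Colonic epithelium markers were present in every group, with 0 of 12 under 0.05 CPM. Of the 12, 4 were lower and 0 higher in deficient proximal colon, and 2 lower and 0 higher in deficient distal colon. Their summed level was 25660 to 37040 CPM in controls and 22870 to 32100 CPM in deficient mice in proximal colon, and 18870 to 28780 against 13170 to 22300 CPM in distal colon. Markers of small-intestinal enterocytes moved with genotype: 11 of 12 tested were higher in deficient proximal colon and 6 of 10 in deficient distal colon. Their summed level (14 genes, none under 0.05 CPM) was 459.8 to 877.9 CPM in proximal controls and 1064 to 3743 CPM in proximal deficient libraries, and 226.7 to 412.4 against 264.5 to 637.5 CPM in distal colon. Summed smooth muscle markers were 1705 to 3445 against 2243 to 3956 CPM in proximal and 1226 to 3572 against 601.3 to 1884 CPM in distal colon, and no marker of that list was called. Hepatocyte markers had 1 higher and 2 lower of 4 tested in proximal and 0 higher and 2 lower of 5 in distal colon, with Fgb under 0.05 CPM in every group. Their summed level (8 genes) was 101.0 to 180.5 CPM in proximal controls and 181.1 to 473.5 CPM in proximal deficient libraries, without overlap. In distal colon it was 108.3 to 392.3 against 64.65 to 203.5 CPM. Of 4 Paneth cell markers tested, 1 was higher and 1 lower in each segment. Their summed level (7 genes) was 15.4 to 56.99 against 26.59 to 844.2 CPM in proximal colon. In distal colon it was 28.28 to 2300 against 17.61 to 1009 CPM. Of 8 fibroblast, 8 immune and 7 enteric glia and neuron markers, at most 1 per list was called in a segment. The same held for the 6 adipocyte markers tested in proximal and 5 in distal colon. Of all genes tested, 11.7% were called in proximal and 6.07% in distal colon. The part of cell makeup in the enzyme results was not tested.

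The sequences just before 7 members are shown, chosen because their genes are neighbours that moved in different directions or had the largest differences given below. They are the 250 bases upstream of the start annotated by RefSeq (GRCm38.p6), read 5′ to 3′ on the gene's strand. Capitals mark a match on either strand to a forkhead-type motif, the motif class bound by Foxa proteins (the letters TGTTTAC or else TATTTAC or else TGTTTGC), or to an HNF4-type motif, bound by a nuclear receptor of gut and liver epithelium (CAAAGTCC or else CAAAGGTCA). Of the Cyp2c genes, the first lie side by side at chr19:39006769-39007018, plus strand (Cyp2c55), chr19:39060756-39061005, plus strand (Cyp2c65) and chr19:39113648-39113897, plus strand (Cyp2c66). Cyp2c68 lies further along the same cluster, with other Cyp2c genes between, at chr19:39741102-39741351, minus strand. The Ugt1a starts are alternative first exons of 1 locus, at chr1:88134559-88134808, plus strand (Ugt1a6a) and chr1:88211709-88211958, plus strand (Ugt1a1), and Sult1c2 is at chr17:53845959-53846208, minus strand.
Cyp2c55: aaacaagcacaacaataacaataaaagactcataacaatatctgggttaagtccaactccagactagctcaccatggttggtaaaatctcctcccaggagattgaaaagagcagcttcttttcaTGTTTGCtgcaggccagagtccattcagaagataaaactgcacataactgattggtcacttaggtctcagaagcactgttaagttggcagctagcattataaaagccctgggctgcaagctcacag
Cyp2c65: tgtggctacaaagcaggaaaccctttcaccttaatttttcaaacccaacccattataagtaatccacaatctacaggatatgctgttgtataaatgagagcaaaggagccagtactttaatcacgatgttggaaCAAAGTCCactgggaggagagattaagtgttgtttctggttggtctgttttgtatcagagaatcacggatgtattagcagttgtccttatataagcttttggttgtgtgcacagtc
Cyp2c66: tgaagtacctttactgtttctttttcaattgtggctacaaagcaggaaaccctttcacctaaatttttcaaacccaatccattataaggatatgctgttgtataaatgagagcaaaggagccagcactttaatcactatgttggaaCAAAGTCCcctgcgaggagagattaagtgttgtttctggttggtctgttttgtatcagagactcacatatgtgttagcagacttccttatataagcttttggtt
Cyp2c68: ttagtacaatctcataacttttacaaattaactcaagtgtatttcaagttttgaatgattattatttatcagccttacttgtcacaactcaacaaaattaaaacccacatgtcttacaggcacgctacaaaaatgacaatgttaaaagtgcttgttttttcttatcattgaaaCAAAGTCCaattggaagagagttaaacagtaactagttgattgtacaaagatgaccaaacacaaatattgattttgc
Ugt1a6a: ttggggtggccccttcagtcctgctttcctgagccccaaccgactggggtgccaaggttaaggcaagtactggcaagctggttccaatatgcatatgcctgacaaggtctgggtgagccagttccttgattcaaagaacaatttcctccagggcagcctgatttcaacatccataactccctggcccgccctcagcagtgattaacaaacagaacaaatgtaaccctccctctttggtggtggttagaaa
Ugt1a1: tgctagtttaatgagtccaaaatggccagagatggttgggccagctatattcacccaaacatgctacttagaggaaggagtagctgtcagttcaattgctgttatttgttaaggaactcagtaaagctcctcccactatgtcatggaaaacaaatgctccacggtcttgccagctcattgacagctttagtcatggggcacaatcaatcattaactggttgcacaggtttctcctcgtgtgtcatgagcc
Sult1c2: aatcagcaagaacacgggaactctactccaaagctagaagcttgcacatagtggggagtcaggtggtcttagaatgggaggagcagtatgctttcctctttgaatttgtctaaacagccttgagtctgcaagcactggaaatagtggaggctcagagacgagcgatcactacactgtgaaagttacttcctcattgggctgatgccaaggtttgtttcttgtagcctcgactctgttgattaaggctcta

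Cyp2c55 carries a forkhead-type match that starts at position -126, counting back from -1 at the base before the annotated start. Cyp2c65, Cyp2c66 and Cyp2c68 instead carry the same HNF4-type letters, starting at -116, -104 and -77. The windows of Ugt1a6a, Ugt1a1 and Sult1c2 hold neither set of letters. RefSeq promoters were matched for 69 of the 82 members, 86 starts in all. Of those 86 windows, 8 held a forkhead-type match (9.30%), against 9.73% of 32851 windows of the same length over all genes. HNF4-type letters were in 10 of 86 (11.6%), against 1.61% of all windows. The 10 include close copies in the Cyp2c cluster, which share sequence and are not independent. Among the 44 windows of members called in either genotype comparison, 1 held a forkhead-type and 7 an HNF4-type match. The antioxidant response core (TGACNNNGC) was in 5 of 86 windows (10.2% of all windows), and the xenobiotic response core (TNGCGTG) in 4 of 86 (4.10% of all windows). A match is a description of letters, and no binding was measured.

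In proximal colon, 36 of the 80 members tested differed between deficient and control mice (edgeR quasi-likelihood test, Benjamini-Hochberg adjusted p under 0.05 over all genes), 13 higher and 23 lower. That is 45.0% of the members, where 11.7% of all 16787 genes tested were called (5.52% higher, 6.17% lower). The lower genes included Sult1c2, Cyp2d10, Cyp2d12, Ugt1a6a, Ugt1a7c, Cyp2s1, 6 mu-class glutathione transferases, Gstk1 and Cyp2c55, the most abundant member per length. Cyp4f16, Cyp2c66, Gsta1 and Sult2b1 rose. By family, 10 Cyp genes were higher and 9 lower of 37 tested, 1 Gst higher and 9 lower of 21, 0 Ugt higher and 3 lower of 10, 1 Sult higher and 2 lower of 8, and 1 Fmo higher and 0 lower of 4. All rises and falls after "by" are log2 fold changes of deficient over control ± SE. The median log2 fold change over the members was -0.15, against 0.01 over all genes.

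In distal colon, 20 of 72 members tested differed, 2 higher and 18 lower (27.8% of the members, where 6.07% of 16041 genes were called, 2.70% higher and 3.37% lower). The lower genes were 9 of 32 Cyp, 6 of 21 Gst, 2 of 7 Ugt and 1 of 8 Sult genes, while 0 of 4 Fmo genes were called (1 at an unadjusted p under 0.05 by the same edgeR test). The members' median log2 fold change was -0.25, against 0.01 over all genes. Of the members, 14 were lower in both segments, 1 (Cyp4f16) was higher in both, and 1 (Sult1a1) was lower in proximal and higher in distal colon. The segments came from mostly the same mice, so the 2 comparisons are not independent. Deficient and control libraries were also compared one by one. In proximal colon the ranges did not overlap for 14 lower and 6 higher of the 80 members tested. Of all genes tested there, 4.81% had ranges that did not overlap, 3.05% lower and 1.76% higher. In distal colon this held for 16 lower and 1 higher of the 72 members tested (3.40% of all genes, 2.07% lower and 1.33% higher). All of these members were among those called (23 lower and 13 higher in proximal, 18 and 2 in distal colon).

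**Figure D1:**
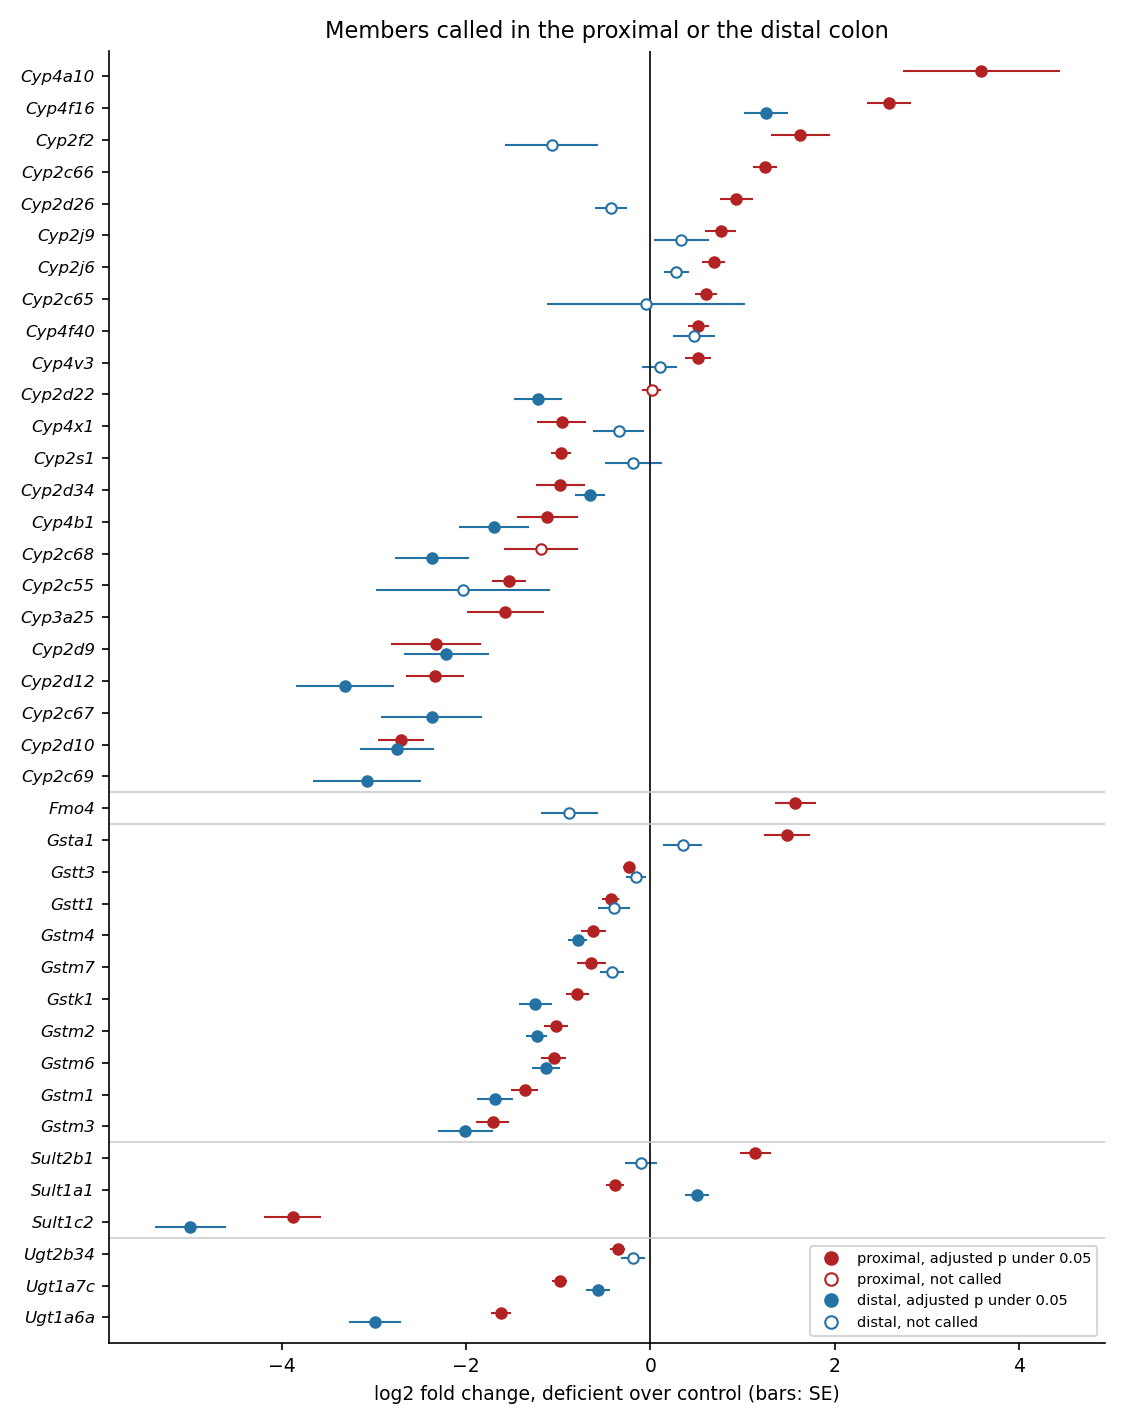
Log2 fold change of deficient over control (horizontal axis, bars are SE) for the 40 members called in proximal (red) or distal (blue) colon, grouped by family; filled points have an adjusted p under 0.05, and members not tested in a segment have no point there. Most Gst, Sult and Ugt points lie left of 0 in both segments, while the Cyp genes lie on both sides in proximal colon.

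Levels per gene length were set by few enzymes in each family. Cyp2c55, a P450 known to hydroxylate arachidonic acid, had 3122 ± 598.3 TPM (length-scaled abundance, SD, n = 7) in proximal controls, 74.8% of the summed Cyp TPM, and Cyp2c65 came next with 345.2 ± 59.2 TPM. In distal controls Cyp2c55 had 578.4 ± 492.5 TPM (n = 6) and Cyp2d34 followed with 313.0 ± 70.7 TPM. Gsto1, an omega-class thiol transferase (534.4 ± 45.2 TPM), and Gstp1, the pi-class enzyme (520.3 ± 76.2 TPM), led the Gst family in proximal controls, and both also led it in distal controls, at 461.1 ± 25.4 and 274.7 ± 16.0 TPM. The TPM of Sult1d1, a sulfotransferase of catecholamines, and of Sult1a1, which sulfates phenols, were 378.7 ± 54.6 and 368.7 ± 34.8 in proximal controls. Sult1b1, at 386.1 ± 75.7 TPM, led in distal controls, before Sult1d1 at 282.9 ± 44.2 TPM. The leading Ugt was Ugt2b34 in both segments (288.5 ± 20.4 and 193.4 ± 38.6 TPM), followed by the bilirubin-conjugating Ugt1a1 in proximal (239.9 ± 70.2 TPM) and by Ugt1a7c in distal controls (89.9 ± 13.6 TPM). Fmo5 had 49.2 ± 8.57 TPM in proximal controls and Fmo1 had 10.5 ± 3.29, while in distal controls the values were 7.25 ± 3.54 and 11.6 ± 2.70 TPM, a difference within their spread. The abundant Gsto1, Gstp1, Sult1d1, Sult1b1, Ugt1a1, Fmo5 and Fmo1 were not called in either genotype comparison.

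The 82 genes together took 0.88% to 1.13% of the counts in proximal controls and 0.67% to 0.79% in proximal deficient libraries. Summed Cyp levels were 4171 to 6959 CPM (median 5763) in proximal controls and 3027 to 3734 CPM (median 3471) in deficient libraries, ranges that do not overlap. The mean Cyp sum went from 5564 to 3406 CPM, while the mean of Cyp2c55 alone went from 4149 to 1412 CPM. The fall in the Cyp sum was thus smaller than that of Cyp2c55. Cyp2c55 also made up most of the fall in the 82-gene sum, from a mean of 9714 to 6687 CPM. Summed Ugt levels were 1624 to 2015 CPM against 1147 to 1351 CPM, also without overlap. The Gst, Sult and Fmo sums overlapped between groups. In distal colon the Gst sum was 916.4 to 1243 CPM in controls and 601.8 to 858.0 CPM in deficient mice, without overlap, and the other 4 family sums overlapped. The Cyp sum there was 1615 to 3959 CPM in controls and 811.9 to 2138 CPM in deficient mice.

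Cyp2c55 fell in proximal colon. It lay at 3028 to 5250 CPM (median 4244) in controls and 972 to 2199 CPM (median 1349) in deficient mice, so every deficient library was below every control (log2 fold change -1.54 ± 0.18, adjusted p = 3.41e-05). Its next neighbours on the chromosome went the other way. Cyp2c65 rose by 0.61 ± 0.12, adjusted p = 0.00242 and lay at 299 to 550 CPM (median 433) in controls and 574 to 750 CPM (median 665) in deficient mice, without overlap. Cyp2c66 was at 8.09 to 13.1 CPM (median 11.5) and 20.3 to 32.1 CPM (median 23.5), again without overlap, and rose by 1.25 ± 0.13, adjusted p = 8.87e-06. A sum over the Cyp2c genes was lower by 1.11 ± 0.15 (adjusted p = 7.55e-05), and that sum was mostly Cyp2c55. It took protein-coding genes by name, so beside the 7 members it could include copies below the member level.

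In distal colon Cyp2c55 and Cyp2c65 varied too widely for a call. Distal Cyp2c55 ran over 351 to 2375 CPM (median 668) in controls and 15.1 to 854 CPM (median 48.1) in deficient mice, with log2 fold change -2.03 ± 0.94, adjusted p = 0.268. Cyp2c65 ran over 3.37 to 102 CPM (median 33.2) and 0.841 to 140 CPM (median 8.68), with -0.05 ± 1.07, adjusted p = 0.991. Deficient replicates 1 and 2 were the high ones for both genes, at 526.2 and 853.8 CPM of Cyp2c55 and 101.9 and 139.7 CPM of Cyp2c65. The other deficient libraries had at most 61.45 and 11.85 CPM. The far end of the same cluster was lower in distal colon. Cyp2c68 was at 13.8 to 71.0 CPM (median 28.2) in controls and 2.06 to 11.3 CPM (median 5.81) in deficient mice, and fell by 2.37 ± 0.40, adjusted p = 0.00240, without overlap. Cyp2c67, under 3 CPM, fell by 2.37 ± 0.55, adjusted p = 0.0172 and Cyp2c69, also under 3 CPM, fell by 3.07 ± 0.59, adjusted p = 0.00570, with no overlap either. Cyp2c67 and Cyp2c69 did not pass the filter on low counts in proximal colon, and Cyp2c68 had -1.19 ± 0.41, adjusted p = 0.0733 there. The distal call of Cyp2c67 was lost with only the controls without Cre (adjusted p = 0.0628) and without the mice labelled female (adjusted p = 0.0539). Cyp2c67 was a member only through its level in distal controls, which favours a lower value in deficient mice. Cyp2c66 was not tested in distal colon.

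**Figure D2:**
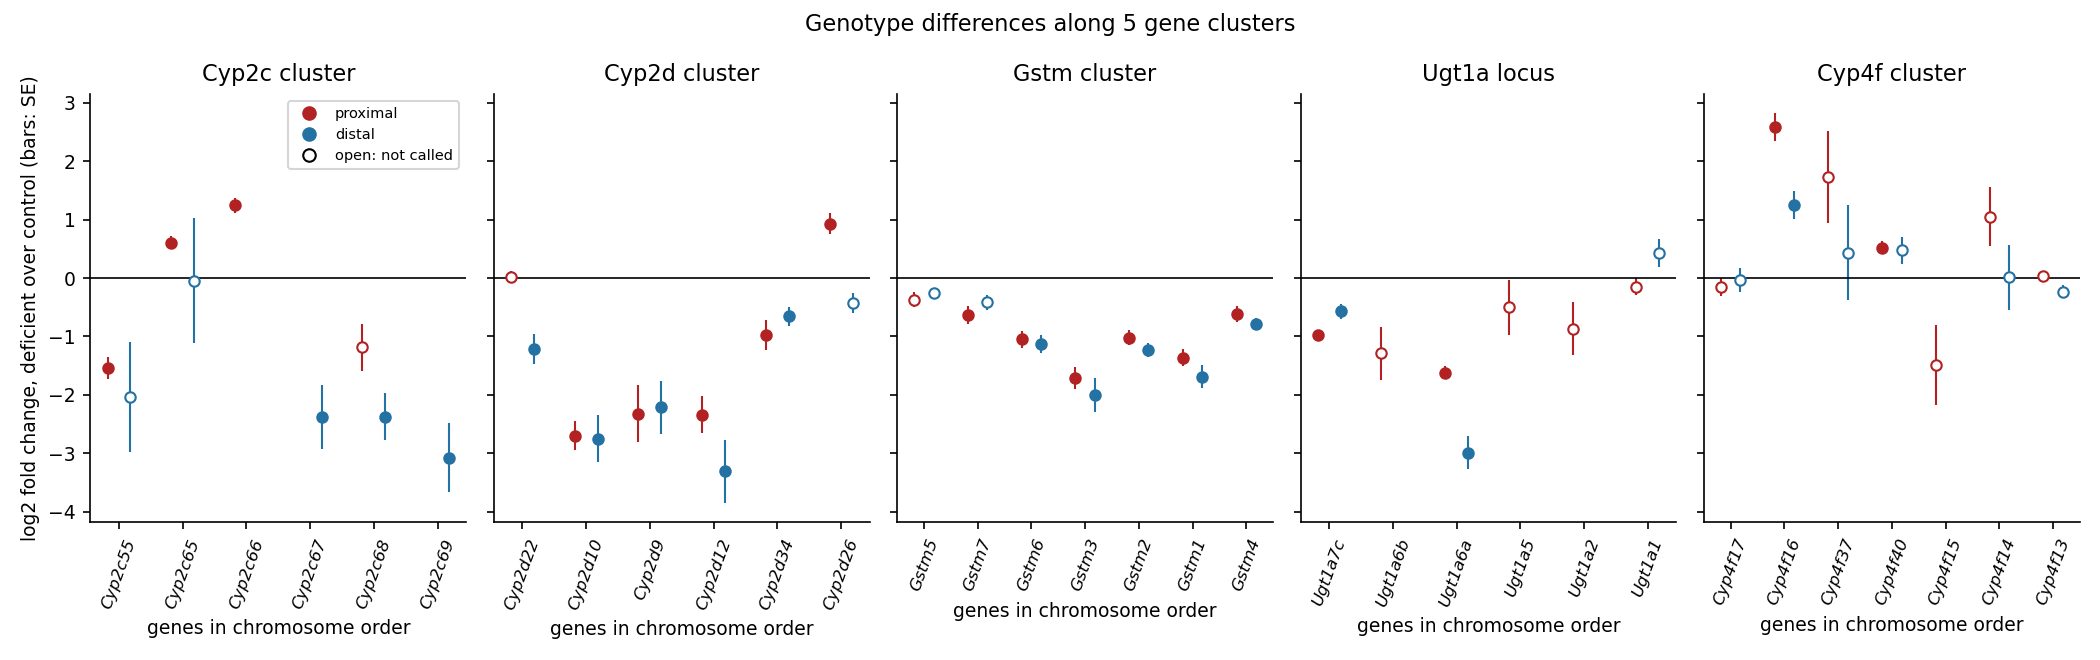
Log2 fold change of deficient over control (vertical axis, bars are SE) for the members of 5 gene clusters, in the order of the genes along the chromosome (not to scale), with proximal values in red, distal values in blue, open points not called and members not tested left out. In the Cyp2c cluster Cyp2c55 is below 0 and Cyp2c65 and Cyp2c66 are above 0 in proximal colon; in the Gstm cluster every point is below 0.

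The neighbours Cyp2d10, Cyp2d9 and Cyp2d12, close-copy Cyp2d genes on chromosome 15, fell in both segments. Cyp2d10 was at 5.26 to 16.3 CPM (median 13.0) in proximal controls and 1.32 to 2.497 CPM (median 1.51) in deficient mice, and fell by 2.70 ± 0.25, adjusted p = 2.99e-06. Its distal level was higher, 87.7 to 355 CPM (median 123) in controls and 11.3 to 46.0 CPM (median 26.2) in deficient mice, and there it fell by 2.75 ± 0.40, adjusted p = 7.67e-04. Neither segment showed overlap. Cyp2d9, which in mouse liver is a testosterone hydroxylase of higher level in males, was at 0.844 to 13.7 CPM (median 9.36) and 0.540 to 2.63 CPM (median 1.77) in proximal colon, where control replicate 6 had 0.84 CPM and lay inside the deficient range. Cyp2d9 fell by 2.33 ± 0.49, adjusted p = 0.00430 in proximal colon and fell by 2.21 ± 0.46, adjusted p = 0.00927 in distal colon, from 47.6 to 251 CPM (median 80.1) to 6.35 to 40.6 CPM (median 22.7), without overlap in distal colon. Cyp2d12 fell by 2.34 ± 0.32, adjusted p = 1.02e-04 in proximal colon. Distal Cyp2d12 went from 20.03 to 194 CPM (median 35.0) to 2.60 to 8.44 CPM (median 6.48), without overlap, and fell by 3.31 ± 0.54, adjusted p = 0.00171.

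Further members of the Cyp2d cluster did not all follow. Cyp2d34, its most abundant member, fell by 0.98 ± 0.27, adjusted p = 0.0230 in proximal and fell by 0.65 ± 0.16, adjusted p = 0.0286 in distal colon, with overlapping groups. Cyp2d22 fell by 1.22 ± 0.26, adjusted p = 0.0111 in distal colon but had 0.02 ± 0.11, adjusted p = 0.958 in proximal colon. Cyp2d26 rose in proximal colon by 0.93 ± 0.18, adjusted p = 0.00199, from 35.3 to 65.3 CPM (median 47.1) to 49.3 to 115 CPM (median 99.1), with overlap, and had -0.43 ± 0.18, adjusted p = 0.208 in distal colon. The quantification could divide near-identical reads of these genes differently. Summed, the cluster had -0.19 ± 0.16 (adjusted p = 0.554) in proximal and -1.29 ± 0.24 (adjusted p = 0.00457) in distal colon. The sum took protein-coding genes by name, so beside the 6 members it could include copies below the member level. Because controls were all labelled male, sex was set beside these values: without the mice labelled female and deficient replicate 3, distal Cyp2d9 was at -2.41 with an adjusted p of 0.0544, distal Cyp2d22 at -1.13 with 0.117, proximal Cyp2d34 at -0.78 with 0.128 and distal Cyp2d34 at -0.69 with 0.105. Distal Cyp2d34 lost its call without any one of control replicates 1, 4 or 6 or deficient replicates 2 to 6, at -0.54 to -0.65 with adjusted p between 0.0525 and 0.0693. With only the controls without Cre, distal Cyp2d22 was at -0.81 (adjusted p = 0.0525; -0.99 with 0.0536 under a transcript length offset), distal Cyp2d9 at -1.52 (0.0541) and distal Cyp2d34 at -0.47 (0.143).

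Cyp4f16, of a subfamily that hydroxylates fatty acids and leukotrienes, rose in both segments. It was at 31.4 to 101 CPM (median 45.3) in proximal controls, the highest being control replicate 6, and at 215 to 392 CPM (median 313) in deficient mice (2.59 ± 0.24, adjusted p = 2.85e-06). Distal colon had 70.2 to 122 CPM (median 88.2) in controls and 133 to 416 CPM (median 207) in deficient mice (1.26 ± 0.24, adjusted p = 0.00605). The groups overlapped in neither segment. Cyp4f40 rose in proximal colon by 0.52 ± 0.11, adjusted p = 0.00453. In the authors' deposited log2 CPM it had the same fold change, 0.52, but an adjusted p of 0.617 by limma. Its mean level there was 2.30 on the log2 CPM scale against 6.53 from the summed counts, while of the 62 members compared in this way in proximal colon 3 differed by more than 1 log2 unit. The other 5 members of the cluster were not called in either segment.

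Other P450 genes that rose in proximal colon were at modest or low levels, apart from Cyp2j6. Cyp2j6, an arachidonic acid epoxygenase of gut, was at 84.8 to 132 CPM (median 108) in controls and 117 to 211 CPM (median 174) in deficient mice (0.69 ± 0.12, adjusted p = 0.00132), with overlap. Its neighbour Cyp2j9 rose by 0.76 ± 0.17, adjusted p = 0.00621, a call lost with mice of 9 to 13 months only (0.58, adjusted p = 0.063). Cyp4v3 rose by 0.52 ± 0.14, adjusted p = 0.0238 but lost the call without control replicate 1 (0.48, adjusted p = 0.062) or deficient replicate 4 (0.40, adjusted p = 0.0581) and without the mice labelled female (0.49, adjusted p = 0.0776). Cyp4a10, a fatty acid hydroxylase and textbook target of PPARα, rose by 3.59 ± 0.85, adjusted p = 0.00956 from a control median of 0.07 CPM to 2.28 CPM, and its fold was 5.52 on the log2 scale without control replicate 2. With mice of 9 to 13 months only, Cyp4a10 was at 2.92 (adjusted p = 0.0739). Cyp2f2, known from lung club cells, rose by 1.63 ± 0.32, adjusted p = 0.00253 from 0.42 to 1.05 CPM (medians), without overlap. In distal colon Cyp2j6, Cyp2j9, Cyp4v3 and Cyp2f2 were not called, and Cyp4a10 was not tested.

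Lower P450 genes outside those clusters were Cyp2s1, Cyp3a25, Cyp4b1 and Cyp4x1. Cyp2s1, an epithelial P450, fell by 0.97 ± 0.11, adjusted p = 1.56e-05 in proximal colon, from 64.1 to 87.8 CPM (median 77.6) to 31.1 to 52.8 CPM (median 38.2), without overlap. Cyp3a25, of the main drug-oxidizing subfamily, was at 4.76 to 37.0 CPM (median 12.4) in proximal controls, with the highest value in control replicate 6, and 2.30 to 9.23 CPM (median 3.49) in deficient mice, with overlap (-1.57 ± 0.42, adjusted p = 0.0196). Its call was lost with only controls without Cre (-1.09, adjusted p = 0.0721) and without the mice labelled female and deficient replicate 3 (-1.79, adjusted p = 0.0572). Cyp4b1 fell by 1.12 ± 0.33, adjusted p = 0.0367 in proximal and fell by 1.69 ± 0.38, adjusted p = 0.0138 in distal colon. The proximal call of Cyp4b1 was lost without any one of control replicates 1, 2, 3, 4 or 7 or deficient replicates 3 to 6, at -0.92 to -1.17 with adjusted p between 0.0504 and 0.0813, without the mice labelled female (-1.22, adjusted p = 0.0644) and in the authors' deposited log2 CPM by limma (-1.03, adjusted p = 0.0753). Cyp4x1, near 1 CPM, fell by 0.96 ± 0.27, adjusted p = 0.0266 in proximal colon, and lost the call without any one of control replicates 2 or 7 or deficient replicates 3, 4, 6 or 7 (-0.80 to -0.93, adjusted p between 0.051 and 0.0616). The abundant Cyp3a13 was not called in either segment (0.11 ± 0.15 and -0.17 ± 0.20).

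Of the flavin monooxygenases, only Fmo4 was called. Fmo4 was at 0.842 to 2.26 CPM (median 1.95) in proximal controls and 3.58 to 6.21 CPM (median 4.89) in deficient mice, without overlap (1.58 ± 0.23, adjusted p = 1.85e-04). Its distal values were 2.29 to 13.5 CPM (median 6.14) in controls and 2.40 to 5.22 CPM (median 3.29) in deficient mice, which overlapped (-0.88 ± 0.31, adjusted p = 0.124).

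**Figure D3:**
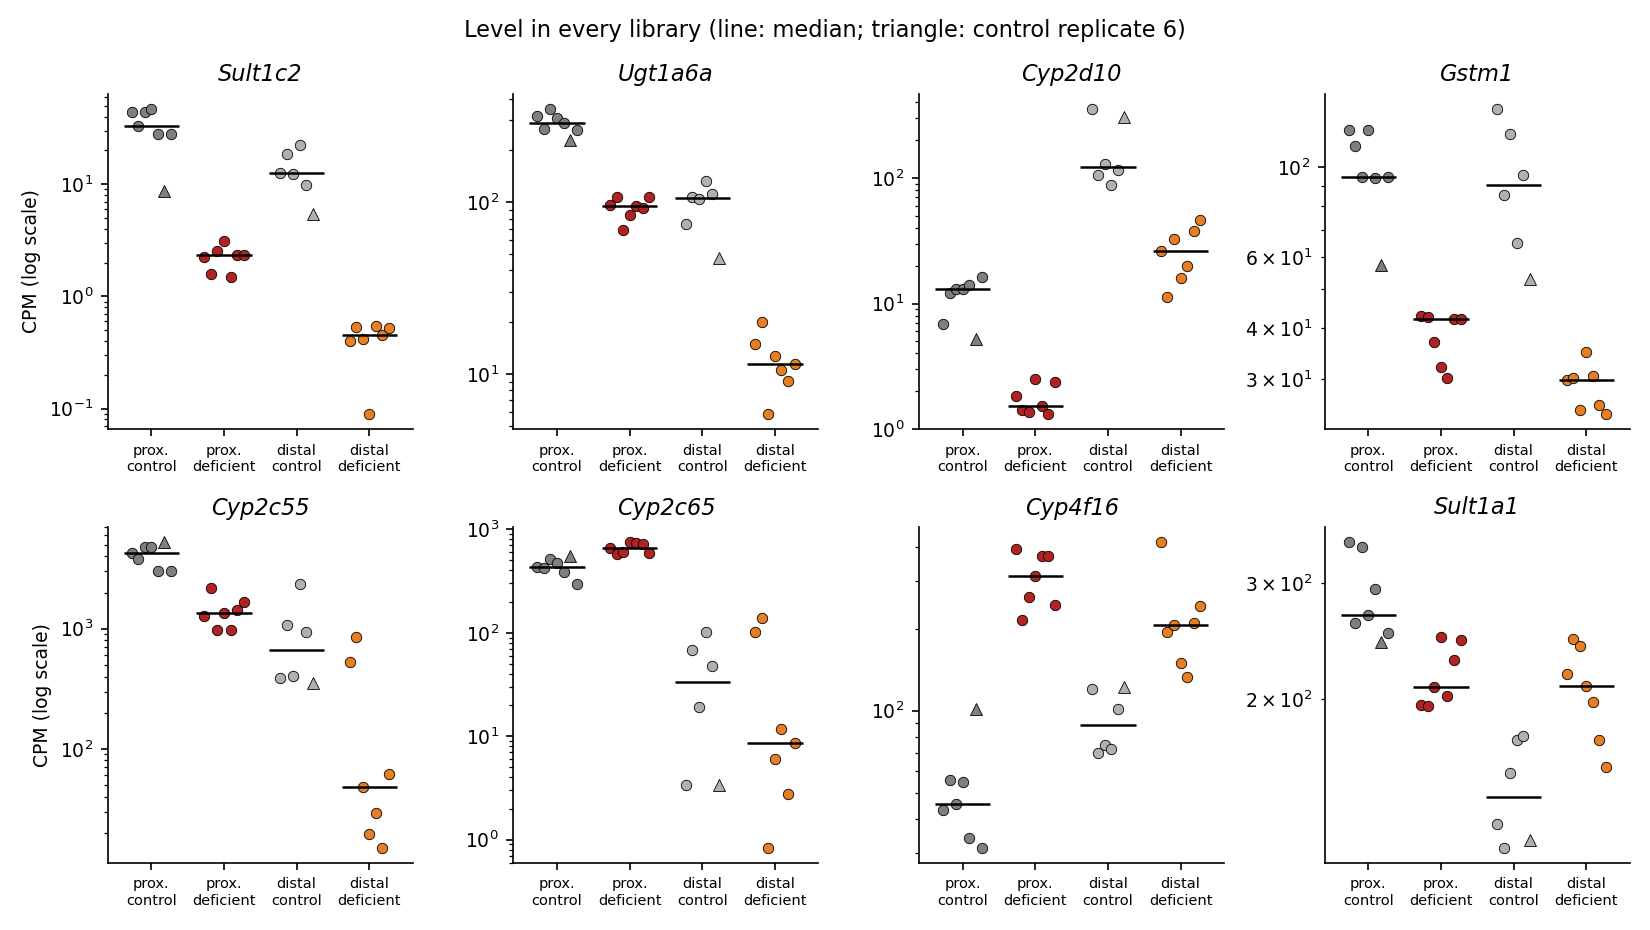
CPM in every library (vertical axis, log scale) of 8 members in the 4 groups, with the group median as a line and control replicate 6 as a triangle. Sult1c2, Ugt1a6a, Cyp2d10 and Gstm1 are lower and Cyp4f16 is higher in deficient libraries of both segments without overlap, Cyp2c55 and Cyp2c65 spread widely in distal colon, and Sult1a1 differs in opposite directions.

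Glucuronidation genes that fell were 2 first exons of the Ugt1a locus and Ugt2b34. Ugt1a6a, which conjugates planar phenols, was at 231 to 349 CPM (median 288) in proximal controls and 69.1 to 107 CPM (median 94.2) in deficient mice (-1.62 ± 0.11, adjusted p = 3.03e-07). Distal Ugt1a6a was at 47.0 to 133 CPM (median 105) and 5.83 to 19.96 CPM (median 11.4) (-2.99 ± 0.28, adjusted p = 2.41e-05). No deficient library reached a control library in either segment. Ugt1a7c fell by 0.98 ± 0.08, adjusted p = 6.83e-07 in proximal and fell by 0.57 ± 0.13, adjusted p = 0.0173 in distal colon, also without overlap, its distal call being lost without the mice labelled female (-0.52, adjusted p = 0.0632). Ugt1a1, which shares its later exons with them, had -0.15 ± 0.15, adjusted p = 0.615 and 0.43 ± 0.25, adjusted p = 0.395. The sum over the locus fell by 0.76 ± 0.07 in proximal (adjusted p = 4.41e-06) and fell by 0.63 ± 0.17 in distal colon (adjusted p = 0.0396); reads in the shared exons cannot be assigned to 1 first exon directly. Ugt2b34, the leading Ugt, fell slightly in proximal colon, from 529 to 700 CPM (median 630) to 411 to 559 CPM (median 478) with overlap (-0.36 ± 0.09, adjusted p = 0.0101; -0.27 with an adjusted p of 0.109 without the mice labelled female and deficient replicate 3).

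Sult1c2 had the lowest fold change of all members in both segments. It was at 8.76 to 47.1 CPM (median 33.4) in proximal controls, the lowest being control replicate 6, and 1.495 to 3.12 CPM (median 2.34) in deficient mice (-3.88 ± 0.31, adjusted p = 6.83e-07). Distal Sult1c2 was at 5.47 to 22.3 CPM (median 12.5) and 0.0895 to 0.549 CPM (median 0.452) (-4.99 ± 0.39, adjusted p = 5.05e-06). There was no overlap in either segment. Sult2b1, which sulfates cholesterol, rose in proximal colon from 22.3 to 47.5 CPM (median 33.7) to 48.6 to 100 CPM (median 68.7), without overlap (1.14 ± 0.17, adjusted p = 2.58e-04), and had -0.10 ± 0.18, adjusted p = 0.814 in distal colon.

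Sult1a1 went in opposite directions. It fell in proximal colon from 244 to 346 CPM (median 268) to 195 to 248.5 CPM (median 209) (-0.38 ± 0.10, adjusted p = 0.0163), with overlap. In distal colon it rose from 119 to 176 CPM (median 142) to 158 to 247 CPM (median 210) (0.51 ± 0.13, adjusted p = 0.0344), with overlap too. The distal call was lost without any one of control replicates 1, 2 or 6 or deficient replicates 1 to 5 (0.46 to 0.52, adjusted p between 0.0507 and 0.0837), with only the controls without Cre (0.41, adjusted p = 0.153), with mice of 9 to 13 months only (0.52, adjusted p = 0.0593) and with no filter on low counts (0.51, adjusted p = 0.0524), and the proximal call without the mice labelled female and deficient replicate 3 (-0.38, adjusted p = 0.0676). Sult1b1, Sult1d1, Sult4a1, Sult5a1 and Sult6b1 were not called in either segment.

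The mu-class glutathione transferases fell together. In their cluster on chromosome 3, 6 of 7 genes were lower in proximal and 5 of 7 in distal colon, the exception in both being Gstm5. Gstm3 was at 27.7 to 62.0 CPM (median 34.3) in proximal controls and 8.84 to 13.8 CPM (median 12.4) in deficient mice (-1.71 ± 0.18, adjusted p = 9.24e-06). In distal colon Gstm3 was at 13.1 to 26.1 CPM (median 23.7) and 3.33 to 10.4 CPM (median 3.79) (-2.01 ± 0.30, adjusted p = 8.74e-04), and neither segment showed overlap. Gstm1, the most abundant mu-class gene in proximal controls, fell by 1.36 ± 0.15, adjusted p = 1.21e-05 in proximal and fell by 1.69 ± 0.20, adjusted p = 1.17e-04 in distal colon. Gstm2 fell by 1.02 ± 0.13, adjusted p = 6.46e-05 in proximal and fell by 1.23 ± 0.11, adjusted p = 2.13e-05 in distal colon. Gstm6 had -1.05 ± 0.14, adjusted p = 9.22e-05 in proximal and -1.13 ± 0.15, adjusted p = 3.83e-04 in distal colon. Gstm4 fell by 0.62 ± 0.14, adjusted p = 0.00700 in proximal and fell by 0.79 ± 0.11, adjusted p = 3.83e-04 in distal colon. Gstm7 fell in proximal colon (-0.64 ± 0.15, adjusted p = 0.0111) and had -0.42 ± 0.13, adjusted p = 0.0831 in distal colon, and its proximal call was lost without the mice labelled female (-0.58, adjusted p = 0.0514). Gstm5 had -0.37 ± 0.13 and -0.26 ± 0.09. The sum over the cluster was lower by 1.12 ± 0.13 in proximal (adjusted p = 1.70e-05) and fell by 1.17 ± 0.11 in distal colon (adjusted p = 2.39e-05), a value that does not depend on how reads were divided among the copies.

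Outside the mu class, calls were in the alpha, kappa and theta classes. Gsta1, an alpha-class enzyme that handles products of lipid peroxidation, was the 1 Gst gene that rose, from 16.2 to 54.4 CPM (median 25.4) to 44.4 to 123 CPM (median 80.5) in proximal colon, with overlap (1.48 ± 0.25, adjusted p = 7.87e-04). Its distal value was 0.35 ± 0.21, adjusted p = 0.417. Gstk1, the kappa-class enzyme of mitochondria and peroxisomes, fell by 0.79 ± 0.13, adjusted p = 4.82e-04 in proximal and fell by 1.25 ± 0.18, adjusted p = 6.02e-04 in distal colon, without overlap in either. Of the theta class, Gstt1 fell by 0.43 ± 0.09, adjusted p = 0.00522 and Gstt3 fell by 0.23 ± 0.06, adjusted p = 0.0200 in proximal colon, both without overlap. The pi, omega and zeta classes, 6 genes in all, were not called in either segment.

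The effect of genotype differed between segments for 7 of 82 members tested in a fit with mouse as a block (8.54%, where 1.01% of 17595 genes were called, 0.432% higher and 0.580% lower). Ugt1a6a fell further in distal colon, with a difference of log2 fold changes (distal minus proximal) of -1.35 ± 0.22, adjusted p = 0.00694. Fmo4 and Cyp2d26, both called higher in proximal and not called in distal colon, had differences of -2.23 ± 0.24, adjusted p = 6.15e-04 and -1.26 ± 0.20, adjusted p = 0.00540. Sult2b1 had -1.16 ± 0.25, adjusted p = 0.0393 and Cyp4f16, higher in both segments, had -1.33 ± 0.30, adjusted p = 0.0437. Sult1a1 was the 1 member with a positive difference, 0.92 ± 0.18, adjusted p = 0.0195. Cyp2c23, an arachidonic acid epoxygenase at 2.29 CPM or less in every library, had -2.12 ± 0.45, adjusted p = 0.0356, though it was called in neither segment alone. Its mean was 1.29 CPM in distal controls and 0.25 to 0.52 CPM in the other groups. Cyp2c23 was thus a member mainly through distal controls, which favours a negative difference, and its call is not independent of the rule. The calls of Ugt1a6a, Fmo4 and Cyp2d26 held in every alternative that tested genes singly. Summed over close copies, the Ugt1a locus had a difference of 0.12 ± 0.19 (adjusted p = 0.849) and the Cyp2d cluster one of -1.03 ± 0.30 (adjusted p = 0.148). Those of Cyp2c23, Cyp4f16 and Sult2b1 were lost without any one of several mice (adjusted p up to 0.0868, 0.105 and 0.102), and that of Sult1a1 without control replicate 2 (0.90, adjusted p = 0.0604) or deficient replicate 3 (0.88, adjusted p = 0.0514).

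Most members differed between the segments themselves. In control mice 18 members were higher and 29 lower in distal than in proximal colon, of 79 tested (59.5%, where 43.8% of 16507 genes were called, 21.5% with higher and 22.3% with lower distal values). In deficient mice 15 were higher and 38 lower of 78 (67.9%, where 45.1% of 16514 genes were called, 22.7% with higher and 22.4% with lower distal values). The members with the highest distal excess were the far Cyp2c genes and 3 of the 6 Cyp2d genes. Of the others, Cyp2d34 was higher too, Cyp2d26 was lower in distal colon of control (-1.95) and deficient mice (-3.21), and Cyp2d22 was lower in deficient mice (-1.16) and not called in controls (0.06). In control mice Cyp2c68 was higher by 4.29 ± 0.27, adjusted p = 5.91e-06, Cyp2d12 by 4.10 ± 0.54, adjusted p = 4.00e-04 and Cyp2d10 by 3.90 ± 0.48, adjusted p = 2.73e-04. Cyp2d9 (3.76 ± 0.67, adjusted p = 0.00199) and Cyp2c67 (3.55 ± 0.36, adjusted p = 9.90e-05) came next, though Cyp2c67 was a member only through its level in distal controls. The same 4 genes, without Cyp2c67, led in deficient mice, with Cyp2d10 at 3.84 ± 0.28, adjusted p = 8.26e-06, Cyp2d9 at 3.80 ± 0.34, adjusted p = 2.91e-05, Cyp2d12 at 3.64 ± 0.34, adjusted p = 4.07e-05 and Cyp2c68 at 3.14 ± 0.39, adjusted p = 1.96e-04, followed by Cyp2d34 (2.18 ± 0.23, adjusted p = 7.31e-05).

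Proximal excess was largest for Cyp3a and near Cyp2c genes. In control mice the distal minus proximal difference was -8.85 ± 0.55, adjusted p = 5.91e-06 for Cyp3a25, -8.49 ± 0.65, adjusted p = 2.03e-05 for Cyp3a44 and -5.51 ± 0.58, adjusted p = 1.19e-04 for Cyp2c66, all 3 with distal medians under 0.2 CPM. Ugt2b5, a steroid-conjugating enzyme, had -5.08 ± 0.64, adjusted p = 3.12e-04 and Cyp4b1 had -4.40 ± 0.38, adjusted p = 3.92e-05. Deficient mice gave -8.23 ± 0.55, adjusted p = 5.36e-06 for Cyp2c66, -6.12 ± 0.35, adjusted p = 1.94e-06 for Cyp3a44, -5.97 ± 1.00, adjusted p = 0.00116 for Cyp2c65, -5.57 ± 0.61, adjusted p = 9.25e-05 for Cyp3a25 and -4.98 ± 0.38, adjusted p = 1.24e-05 for Cyp4b1. Folds against groups at or near 0 depend on the prior count of the fit. Fmo4 was the 1 member called in opposite directions, higher in distal colon of control mice (1.74 ± 0.20, adjusted p = 1.97e-04) and lower in distal colon of deficient mice (-0.50 ± 0.15, adjusted p = 0.0212). The deposited effective lengths rest on another fragment length setting in distal than in proximal libraries, and the part of this setting in the segment differences was not tested.

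**Figure D4:**
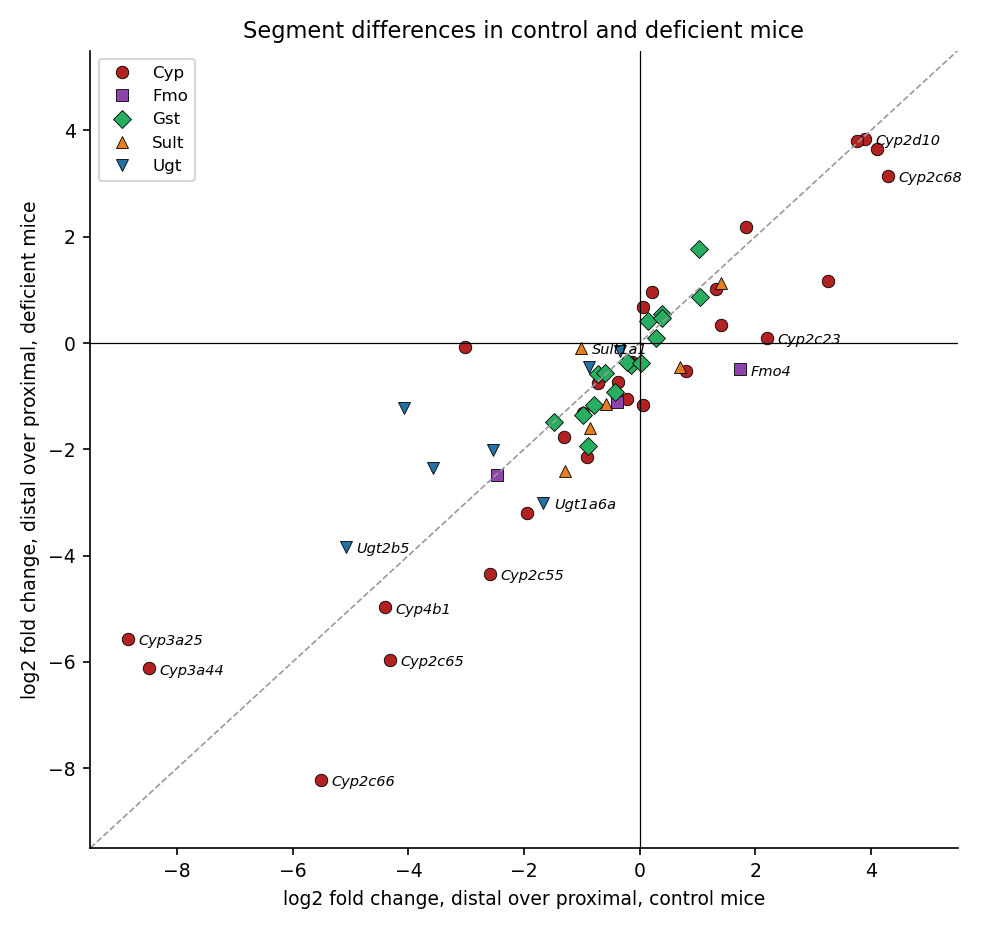
Log2 fold change of distal over proximal colon in control mice (horizontal axis) and in deficient mice (vertical axis) for the 60 members tested in both and called in at least 1; each point is a member, colored by family, and the dashed line marks equal values. Cyp2d9, Cyp2d10, Cyp2d12 and Cyp2c68 lie at the upper right, Cyp3a25, Cyp3a44 and Cyp2c66 at the lower left, and Fmo4 is in the lower right.

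Control replicate 6, the control with Cre, both Foxa1 copies floxed and a low Foxa1 level, often lay nearest to the deficient mice. It was beyond all other controls on the deficient side for 21 of the 36 members called in proximal colon and for 10 of the 20 called in distal colon. The other controls were so placed for 1 to 5 members in proximal and 0 to 4 in distal colon. On the side away from the deficient mice, distal control replicate 1 was beyond the other controls for 10 of the 20 members. Proximal control replicate 7 was so for 9 of the 36. These counts were not made over all called genes, so they are not shown to be particular to these enzymes. Sult1c2 in this mouse was 8.76 CPM in proximal colon, against 27.8 to 47.1 CPM in the other controls, and 5.47 against 9.82 to 22.3 CPM in distal colon. Ugt1a6a was 47.0 CPM in its distal colon, against 74.8 to 133.2 CPM. Proximal Gstm1 was 57.3 against 94.1 to 123.6 CPM, and proximal Cyp4f16 101.0 against 31.4 to 55.4 CPM. Cyp2c55 was an exception, with 5250 CPM in proximal colon, above the other controls. It is 1 mouse, and it was 18 months old, as were control replicates 5 and 7, while no deficient mouse was older than 13 months. Without it, 37 members were called in proximal colon (13 higher, 24 lower, 36 of them as before) and 18 in distal colon (1 higher, 17 lower). With mice of 9 to 13 months only, 40 members were called in proximal colon (11 higher, 29 lower, 34 of them as before) and 20 in distal colon (1 higher, 19 lower, 19 of them as before). The share of all genes called in these refits was not worked out. The changes in count are therefore not read as a result about the members.

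**Figure D5:**
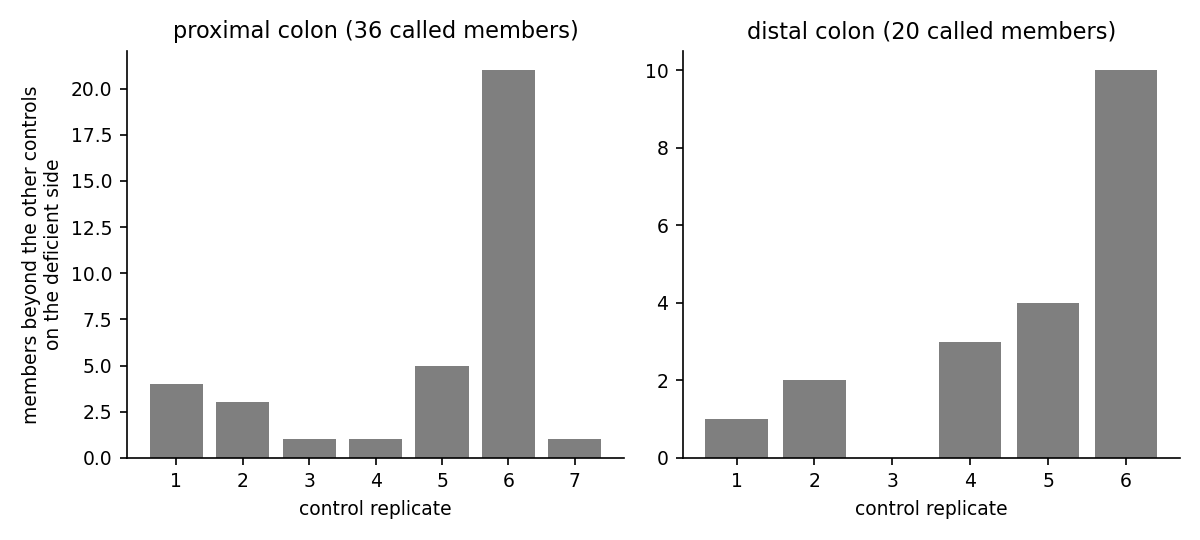
Number of called members (vertical axis) for which a control library lay beyond all other controls on the side of the deficient mice, for each control replicate in proximal (left) and distal (right) colon. Replicate 6 has 21 of 36 and 10 of 20 members, and every other control at most 5. The count was not made over all called genes.

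Genes of the surrounding pathways are read against the 11.7% of all genes called in proximal and the 6.07% called in distal colon. Of 14 tested receptors and regulators of xenobiotic response, 1 was higher and 1 lower in proximal and 0 and 1 in distal colon, the median log2 fold changes being 0.19 and 0.05. Nfe2l2, which encodes the antioxidant response factor Nrf2, fell by 0.26 ± 0.07 (adjusted p = 0.0164) in proximal and fell by 0.68 ± 0.10 (adjusted p = 0.000746) in distal colon. Nr3c1, the glucocorticoid receptor, rose by 0.27 ± 0.07 (adjusted p = 0.0163) in proximal colon. The aryl hydrocarbon receptor Ahr, the pregnane X receptor Nr1i2 and Hnf4a were not called in proximal colon, with 0.14, 0.23 and 0.27. Among 17 genes that supply electrons and cofactors, Gclm, a subunit of the enzyme that starts glutathione synthesis, rose by 0.55 ± 0.10 (adjusted p = 0.00195) and 0.52 ± 0.14 (adjusted p = 0.0451). Impad1, a nucleotide phosphatase of sulfation, fell by 0.31 ± 0.06 (adjusted p = 0.00137) in proximal and fell by 0.49 ± 0.10 in distal colon (adjusted p = 0.00992), and the other 15 were not called in either segment.

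Of 9 efflux transporters, 2 rose and 1 fell in proximal colon and 0 rose and 1 fell in distal colon (11.7% and 6.07% of all genes were called). Abcc2, which exports glutathione and glucuronide conjugates at the apical side, rose by 1.90 ± 0.44 in proximal colon (adjusted p = 0.00886), from a mean of 1.75 to 6.41 CPM. Abcg2, an apical exporter of sulfated compounds among others, rose there by 0.63 ± 0.13 (adjusted p = 0.00311), and Abcc1 fell by 0.41 ± 0.13 (adjusted p = 0.0489). Abcc3, a basolateral exporter of glucuronides, fell by 1.07 ± 0.17 in distal colon (adjusted p = 0.00171), from 365.8 ± 78.7 (SD, n = 6) to 173.6 ± 40.5 CPM (n = 7). Of 25 other xenobiotic enzymes tested in proximal colon, 4 rose and 4 fell, and of 26 in distal colon 2 rose and 4 fell. The carboxylesterase gene Ces2a fell by 1.26 ± 0.17 (adjusted p = 8.13e-05) in proximal and fell by 1.16 ± 0.32 (adjusted p = 0.0474) in distal colon. Ces1f, another carboxylesterase, rose in distal colon by 1.73 ± 0.21 (adjusted p = 0.00017), and the microsomal transferase Mgst1 rose in both segments, by 0.58 ± 0.10 (adjusted p = 0.0011) and 1.03 ± 0.18 (adjusted p = 0.00248). Alcohol dehydrogenase Adh1 fell by 0.68 ± 0.11 (adjusted p = 0.000506) in proximal colon, and the soluble epoxide hydrolase Ephx2 fell by 1.24 ± 0.19 (adjusted p = 0.00101) in distal colon.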

How the data were processed

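Groups, replicate numbers, sex, age and genotype were taken from the labels, and replicates are separate mice. Per the submitters' processing notes, bcl2fastq 2.20.0.422, cutadapt 2.5, kallisto 0.46.2 and edgeR were used on GRCm38 (mm10). The authors deposited estimated counts per transcript with TPM and effective lengths, and log2 CPM per gene; how the latter were normalized is not stated in the labels. Per the deposited effective lengths, fragments were set at 249.0 bases (length minus effective length) in all distal libraries and at 214.6 to 245.6 in proximal ones.

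Estimated counts were summed per gene over GENCODE M21 (116728 of 119414 transcripts matched) and rounded. Genotypes were compared within each segment with the edgeR 4.0.16 quasi-likelihood test (R 4.3.3, filterByExpr, TMM), without covariates, and segments and the difference of effects with mouse as a block. A gene was called at an adjusted p (Benjamini-Hochberg, over all genes) under 0.05. Log2 fold changes carry an SE worked back from the test, as the absolute log2 fold change over the square root of F. This SE is approximate, above all for groups near 0 CPM. Levels are TMM-scaled CPM. Deposited TPM were summed per gene to compare levels between genes. The scripts were tested on simulated data (2-fold changes recovered: 85.0% in proximal, 67.0% in distal colon). For the difference between segments 49% were recovered, and for the segments 70% in control and 73% in deficient mice. Replicate numbers do not pair control with deficient mice (correlations -0.16 to 0.27). Read division among close copies is uncertain.

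All called members are named, with the 2 highest TPM per family and the 5 highest and lowest segment differences. Per-library values are given for up to 6 called members per direction with at least 5 CPM. Up to 3 genes of smallest p were taken per further list. Members and lists were chosen with earlier results of these data known. Alternatives were DESeq2 1.42.0, RLE scaling, no filter, length offset, summed copies, left-out mice and limma 3.58.1 on the authors' log2 CPM. Leaving out deficient replicate 3 with the mice labelled female was added after seeing the data.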

Additional observations from a re-analysis of the deposited data

Results flagged for a closer look

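In 147 tests over 41 members, 11 library values stood apart from the rest of their group by Dixon's criterion, and chance gives about 1 in 20 groups. Of these, 3 were in proximal control replicate 6: Cyp3a25 at 37.0 CPM (others 4.76 to 15.5), Cyp4f16 at 101.0 CPM (others 31.4 to 55.4) and Cyp4v3 at 16.7 CPM (others 11.2 to 12.7). The same mouse had the lowest distal Gstm3, 13.1 CPM (other controls 23.0 to 26.1). Distal control replicate 1 stood apart with Cyp2d12 at 193.9 CPM (others 20.03 to 58.8) and Fmo4 at 13.5 CPM (others 2.29 to 6.48), and proximal control replicate 1 with Cyp2c68 at 3.76 CPM (others up to 1.80). Distal control replicate 4 had 2375 CPM of Cyp2c55 (others 351.4 to 1078). Distal deficient replicate 1 had Cyp2d22 at 25.1 CPM (others 8.71 to 14.3) and Cyp4f16 at 415.8 CPM (others 133.2 to 242.3), and distal deficient replicate 3 had Gstm7 at 6.68 CPM (others up to 5.49).

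The genotype effect differed between segments, by the fitted difference of distal minus proximal log2 fold changes, for Fmo4 (-2.23), Cyp2c23 (-2.12), Ugt1a6a (-1.35), Cyp4f16 (-1.33), Cyp2d26 (-1.26), Sult2b1 (-1.16) and Sult1a1 (0.92).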

How the results depend on the processing

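With genes tested singly, no named value changed direction in any alternative. Calls held in every such alternative for 24 of 36 members in proximal colon, 13 of 20 in distal colon and 3 of 7 for the difference between segments, and for all 20 segment differences named. Leaving out 1 mouse in turn gave 34 to 38, 18 to 21, 3 to 8, 46 to 50 and 47 to 54 called members for the proximal, distal, difference, control-segment and deficient-segment comparisons. With close copies summed, 19 of 40 units were called in proximal colon, 7 of 38 in distal colon, 3 for the difference, 21 for segments in control and 27 in deficient mice; there are fewer units than members by construction. DESeq2 called 11 members for the difference between segments (7 of them as in the main analysis), and the cause was not tested. With the replicate block, 29 members were called in proximal and 18 in distal colon, though the labels do not say that the numbers pair the mice. With no replicate block for mouse, 8, 47 and 55 members were called for the difference and the segments. Controls without Cre gave 36 and 15. Shares of all genes called were worked out for the main fits only, so the counts of the alternatives have no such share beside them. Precision is limited for members under about 1 CPM and in distal libraries, where depth was lowest.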
